A study of Mus musculus with 8 samples.

Results

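The tissue residency genes described here are 10 genes that mark or help to form CD8 T cells that stay in a tissue: Itgae, Itga1, Cd69, Zfp683, Rgs1, Rgs2, Runx3, Ahr, Xcl1 and P2rx7. They were taken by gene name from the deposited table, where all 10 of 19673 listed genes were found once, and all 10 were among the 16120 genes tested. Bulk RNA sequencing covered CD8 T cells, sorted as live CD45+CD3e+CD8+ cells, of tumours formed in mice by injected Py8119 cells, a mammary tumour line of the mouse. The KO group came from hosts with the genotype Mtdh KO and the WT group from wild-type hosts, with 4 biological replicates each, numbered as libraries 1 to 4 of their group. The same Py8119 cells were injected into both groups, and the design asks what the Mtdh (metadherin) status of the host does to the CD8 T cells that enter the tumour. The type of Mtdh allele, the strain and the age of the hosts are not given in the sources used here.

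A resident memory T cell is a T cell that settles in a tissue instead of returning to the blood. It holds on to the epithelium and the matrix through integrins, blocks the exit signal that sphingosine-1-phosphate gives through S1PR1, and follows a programme set by transcription factors such as Runx3 and Hobit (Zfp683). In tumours, CD8 T cells with this programme are often found in close contact with cancer cells. Several of these genes are also made by other cells of a tumour: Itga1 by stromal cells, Rgs1, Rgs2, Ahr and P2rx7 by myeloid cells, and Itgae by dendritic cells.

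All values are read counts per gene that the authors divided by a DESeq2 size factor, called normalized values here. Estimated depth was 16400000 to 29600000 reads per library, and the share of genes left undetected gave an estimate of 111000 to 634000 distinct cDNA fragments per library. By that estimate a single fragment was worth a normalized value of 23.5 to 154, depending on the library, and a gene near that level rests on few molecules. Mtdh, the check of the labels, had normalized values of 2538 to 5118 in KO libraries and 6407 to 12745 in WT libraries. Every KO library lay below every WT library, as for 2.09% of all genes tested. The KO mean was 0.43 of the WT mean, so reads counted as Mtdh remained in the KO libraries. All 10 CD8 T cell markers were above 0 in every library. So were all 10 macrophage and monocyte markers, of which Lyz2 lay at 75242 to 186897 in KO libraries and 130076 to 211543 in WT libraries, above Cd8a at 7561 to 13355 in KO libraries and 1565 to 6545 in WT libraries. Some CD8 T cell markers fell far below a single fragment: Cd3d at about 0.0215 in KO library 2 and 0.0292 in WT library 2. So did Cd2 (0.0439) and Cd247 (0.11) in WT library 2 and Cd5 (0.0577) in KO library 1. These values enter the mean log2 level of the markers used below, which was lowest in WT library 2 (7.05) and KO library 1 (8.59). The libraries are bulk, so fewer cells of a type and less RNA per cell cannot be told apart.

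Promoter sequences show 3 members that behaved differently in these libraries: Itga1, whose groups separated, Rgs2, which was high in every library, and Xcl1, which was at 0 in most. They are RefSeq promoters on GRCm38.p6, from 250 bases before to 50 bases after the gene start, read 5′ to 3′ on the strand of the gene. RefSeq entries were at hand for 5 of the 10 members, with 7 promoters in all. Capitals mark the matches to the motifs searched, on either strand: TGTGGT for RUNX factors, GCGTG for the aryl hydrocarbon receptor, TGANTCA for AP-1 and GAAAGT for the related repressors Blimp1 and Hobit.
Itga1, chr13:115101915-115102214, minus strand: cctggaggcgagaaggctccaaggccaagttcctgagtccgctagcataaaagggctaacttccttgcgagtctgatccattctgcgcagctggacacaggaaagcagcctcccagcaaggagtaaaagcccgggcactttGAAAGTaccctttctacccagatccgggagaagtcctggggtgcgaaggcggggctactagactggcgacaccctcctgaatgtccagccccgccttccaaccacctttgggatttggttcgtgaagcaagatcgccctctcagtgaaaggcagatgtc
Rgs2, chr1:144004100-144004399, minus strand: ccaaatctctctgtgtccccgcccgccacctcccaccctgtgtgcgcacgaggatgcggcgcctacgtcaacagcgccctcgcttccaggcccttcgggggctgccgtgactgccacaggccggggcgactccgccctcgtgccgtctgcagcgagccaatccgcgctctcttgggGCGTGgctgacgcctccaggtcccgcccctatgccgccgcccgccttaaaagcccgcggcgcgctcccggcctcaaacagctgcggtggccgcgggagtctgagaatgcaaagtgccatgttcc
Xcl1, chr1:164935473-164935772, minus strand: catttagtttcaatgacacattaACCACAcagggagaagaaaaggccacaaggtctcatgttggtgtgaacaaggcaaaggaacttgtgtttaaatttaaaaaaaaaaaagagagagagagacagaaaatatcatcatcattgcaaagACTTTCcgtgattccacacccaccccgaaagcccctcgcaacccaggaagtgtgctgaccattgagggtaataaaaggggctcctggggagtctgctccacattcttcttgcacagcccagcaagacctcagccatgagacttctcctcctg
The Itga1 promoter held 1 match to GAAAGT, starting 109 bases before the gene start and overlapping no other match. The Rgs2 promoter held 1 match to GCGTG. The Xcl1 promoter held 1 match to TGTGGT and 1 to GAAAGT, both on the opposite strand. Of all 32851 mouse promoters of this length, 16.8% held TGTGGT, 32.4% GCGTG, 7.81% TGANTCA and 14.3% GAAAGT. The 3 promoters differed in CG dinucleotides, with 33 in Rgs2, 12 in Itga1 and 3 in Xcl1, against a median of 7 over all promoters.

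Of the 10 residency genes, 0 passed limma's adjusted p of 0.05 in KO against WT, where 0.236% of all genes tested passed in either direction (0.211% higher and 0.0248% lower in KO), and 1, Itga1, had an unadjusted p below 0.05, as had 6.7% of all genes tested. By the exact two-sided permutation test of each gene, 1 of 10 was below 0.05, again Itga1. The fitted log2 fold changes, KO over WT, were above 0 for 8 of 10 genes, against 43.4% of all genes tested. Relative to the mean log2 level of the CD8 T cell markers, the KO minus WT difference was above 0 for 3 of 10 genes and below 0 for 7, and the groups overlapped for all 10. With that level as a covariate, 5 of 10 log2 fold changes were above 0. The median log2 fold change of the 10 genes without the covariate was 0.23, against -0.12 over all genes tested. With the covariate the median was -0.0010, and without WT library 2, the library lowest in those markers, it was 0.03. KO and WT values overlapped for 9 of 10 genes, and adjusted p ranged from 0.286 for Itga1 to 0.991 for Rgs1.

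**Figure D1:**
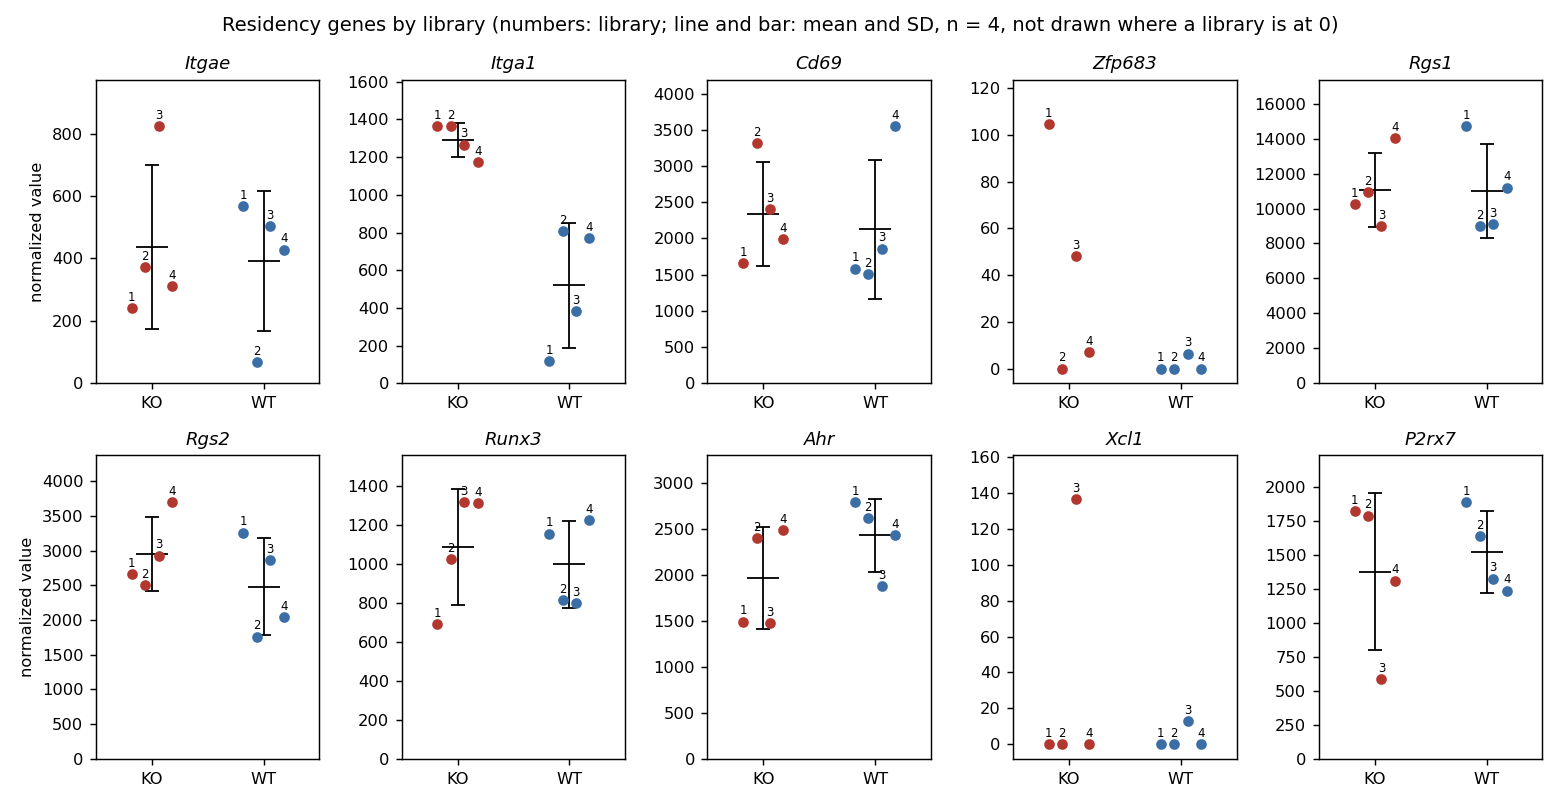
Normalized values of the 10 residency genes in each library. Each panel is a gene with its own linear axis, red points are KO libraries 1 to 4, blue points are WT libraries 1 to 4, and the black line and bar are the mean and SD (n = 4), left out for Zfp683 and Xcl1, which have libraries at 0. The KO and WT ranges are apart for Itga1, at 1175 to 1365 in KO libraries and 115 to 807 in WT libraries, and overlap for the other 9.

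Itga1 encodes the integrin alpha 1 chain (CD49a), which pairs with the beta 1 chain and binds collagen, above all collagen IV of basement membranes (ENSMUSG00000042284, chromosome 13, 115089632 to 115238500 of mm39, minus strand). Its normalized values in KO libraries 1 to 4 were 1365, 1364, 1266 and 1175, against 115, 807, 384 and 772 in WT libraries 1 to 4. Every KO library lay above every WT library, as for 2.02% of all genes tested. The KO libraries lay close together, with a mean of 1293 ± 91.0 (SD, n = 4) and a coefficient of variation of 7.04%, whereas the WT libraries varied widely around 520 ± 331 (SD, n = 4), a coefficient of variation of 63.7%. KO libraries 1 to 4 rest on about 17.4, 8.86, 30.7 and 30.5 fragments of Itga1. That is too few for so small a spread to be read as a trait of the KO group. The log2 fold change was 1.66 (SE 0.47, 95% confidence interval 0.67 to 2.65), or 3.16-fold on the log2(value + 1) scale. The unadjusted limma p was 0.00226, which placed Itga1 127th of 16120 genes, and the adjusted p was 0.286. By an exact two-sided permutation test p was 0.0286, which is the smallest value possible with 70 arrangements and is not adjusted for the 10 genes tested in this way.

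WT library 1 rests on about 1.85 fragments of Itga1, and without it the log2 fold change was 1.05 (limma adjusted p = 0.738). Leaving out any other library gave log2 fold changes of 1.63 to 1.99, and no alternative brought the gene past the threshold. Markers of several cell types are given beside Itga1. The summed dendritic cell markers were apart in the same direction, at 30174 to 81257 in KO libraries and 12239 to 25108 in WT libraries. Of 7 tested dendritic cell markers 5 were positive, and Zbtb46 (-0.72) and Batf3 (-1.36) were negative in log2 fold change. Clec9a, Batf3, Flt3 and Cd209a were at 0 in some libraries. H2-Aa, an MHC class II chain, passed the threshold (log2 fold change 1.80, SE 0.29, adjusted p = 0.00762 by limma). Of the 7, only H2-Aa had KO and WT ranges that were apart. H2-Aa made up most of the sum, at 28949 to 79428 in KO libraries and 11605 to 24286 in WT libraries. The summed NK and gamma-delta T cell markers were at 670, 394, 666 and 867 in KO libraries 1 to 4, against 3.98, 167, 505 and 392 in WT libraries 1 to 4. WT library 1 was lowest in this sum and in Itga1. Of the WT libraries, however, library 3 was highest in the sum and library 2 highest in Itga1. In WT library 1, Klrb1c and Trdc were at about 0.0191 and 0.0449 fragments, and Ncr1 and Klre1 at 0. All 4 of these markers were positive and 0 passed, with Ncr1, Klre1 and Trdc at 0 in some libraries. The summed CD8 T cell markers were at 19494 to 42686 in KO libraries and 7483 to 24798 in WT libraries, with 9 of 10 markers positive in log2 fold change, and on a scale relative to these markers the KO minus WT difference of Itga1 was 0.93 (log2) and the groups overlapped. The summed fibroblast markers were at 3298 to 20381 in KO libraries and 6875 to 16007 in WT libraries, with 6 of 7 negative and Dcn and Lum at 0 in some libraries. The summed endothelial markers were at 747 to 1583 in KO libraries and 756 to 1994 in WT libraries, with 3 of 5 negative and Cdh5, Tek and Vwf at 0 in some libraries. The summed smooth muscle and pericyte markers were at 3.30 to 343 in KO libraries and 191 to 658 in WT libraries, with 2 of 3 negative and Acta2 and Tagln at 0 in some libraries. With the CD8 marker level as a covariate the log2 fold change of Itga1 was 1.81 (limma adjusted p = 0.253). The part of dendritic, NK, gamma-delta T and stromal cells in the Itga1 difference was not tested.

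**Figure D2:**
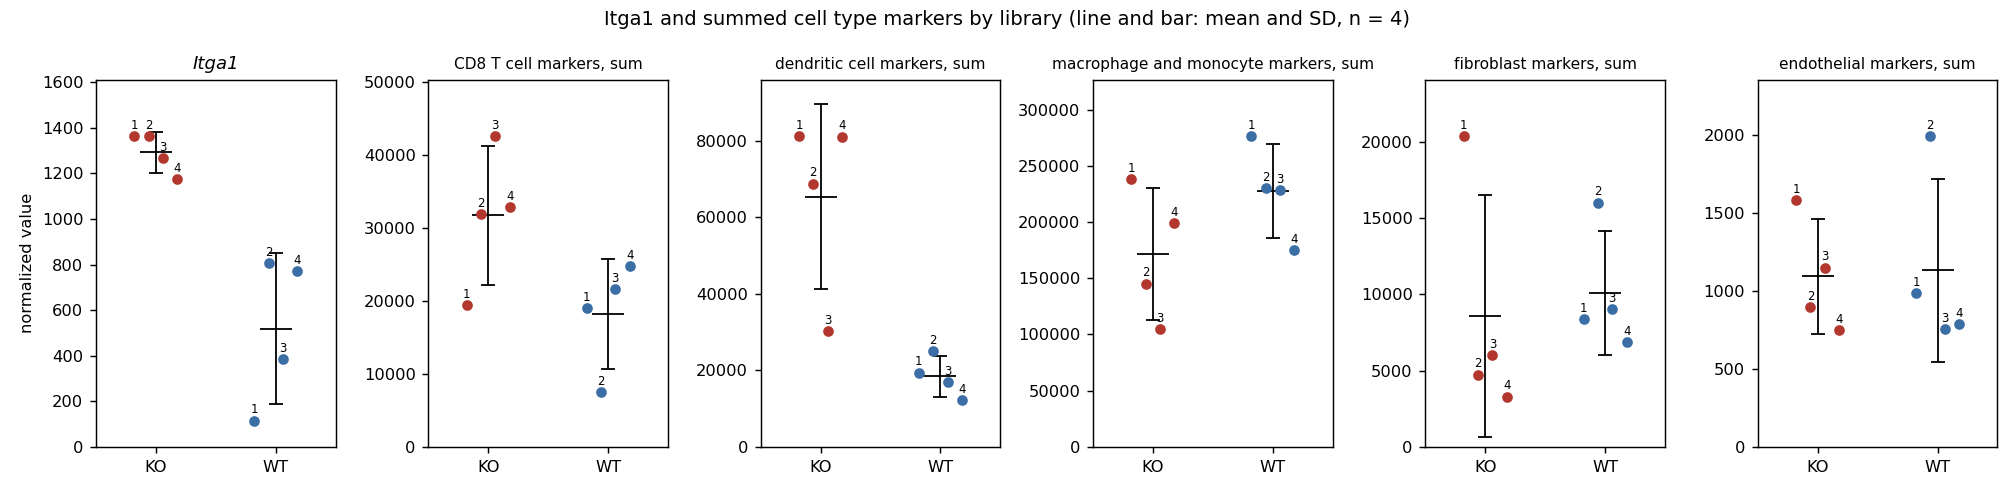
Normalized values of Itga1 and of the summed markers of 5 cell types in each library, on linear axes. Red points are KO and blue points WT libraries 1 to 4, with the mean and SD (n = 4) in black. The groups are apart, with KO above WT, for Itga1 and for the dendritic cell marker sum, and overlap for the other 4 panels. H2-Aa made up most of the dendritic cell marker sum.

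Itgae encodes the integrin alpha E chain (CD103), which pairs with beta 7 and holds T cells to E-cadherin on epithelial cells (ENSMUSG00000005947, chromosome 11, 72981409 to 73038272, plus strand). Its normalized values were 240, 372, 825 and 310 in KO libraries 1 to 4, against 567, 68.1, 503 and 428 in WT libraries 1 to 4. The groups overlapped, with the highest value in KO library 3 and the lowest in WT library 2, which are also the libraries highest and lowest in CD8 T cell markers. The mean was 437 ± 264 for KO and 392 ± 223 for WT (SD, n = 4 each), and the log2 fold change of 0.36 had a 95% confidence interval of -0.97 to 1.69 (limma adjusted p = 0.925). Its sign turned under 3 alternatives, to -0.35 without WT library 2, -0.22 with the CD8 marker covariate and -0.06 with sample weights. WT library 2 rests on about 1.05 fragments of Itgae and KO libraries 1 and 2 on about 3.07 and 2.42. The spread of this gene within each group, with coefficients of variation of 60.5% in KO and 57.0% in WT, was wider than the difference between the group means.

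Cd69 encodes an early activation protein that binds S1PR1 and draws it off the cell surface (ENSMUSG00000030156, chromosome 6, 129244288 to 129252399, minus strand). Its normalized values were 1656, 3314, 2405 and 1996 in KO libraries 1 to 4, against 1583, 1509, 1861 and 3554 in WT libraries 1 to 4. The highest values were in KO library 2 and WT library 4, the highest of all in WT, and the groups overlapped. The log2 fold change was 0.18 (95% confidence interval -0.42 to 0.79, limma adjusted p = 0.915), and it ranged from 0.0013 without KO library 2 to 0.46 without WT library 4.

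Rgs1 and Rgs2 encode regulators of G protein signalling, which speed the switch-off of G alpha subunits and so dampen the response to chemokine and other G protein-coupled receptors. They lie on the same strand of chromosome 1, 238 kb apart (Rgs1, ENSMUSG00000026358, 144118034 to 144124980; Rgs2, ENSMUSG00000026360, 143875076 to 143879899). Rgs1 had normalized values of 10236, 10951, 9012 and 14012 in KO libraries 1 to 4, against 14725, 8978, 9126 and 11205 in WT libraries 1 to 4. The groups covered nearly the same range, and their means, 11053 ± 2129 for KO and 11008 ± 2678 for WT (SD, n = 4 each), differed by far less than the spread between libraries. The log2 fold change was 0.02 with a 95% confidence interval of -0.43 to 0.46 (limma adjusted p = 0.991), and its sign turned under 6 of 18 alternatives, among them quantile scaling (-0.04), upper-quartile scaling (-0.15) and the CD8 marker covariate (-0.03). With 71.1 to 389 fragments per library, Rgs1 was the most firmly measured of the 10 genes.

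Rgs2 had normalized values of 2659, 2507, 2928 and 3705 in KO libraries 1 to 4, against 3259, 1763, 2867 and 2041 in WT libraries 1 to 4. The 2 lowest values were both in WT and the highest was in KO, but the groups overlapped. Rgs2 had a fitted log2 fold change of 0.28 (95% confidence interval -0.23 to 0.78, limma adjusted p = 0.830).

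Runx3, Ahr and Zfp683 encode transcription factors. Runx3, which with CBFB drives the CD8 lineage and CD8 T cell residency (ENSMUSG00000070691, chromosome 4, 134847963 to 134905301, plus strand), had normalized values of 691, 1026, 1320 and 1314 in KO libraries 1 to 4, against 1156, 816, 799 and 1226 in WT libraries 1 to 4. The lowest value was in KO library 1 and the highest in KO library 3, and the groups overlapped. For Runx3 the log2 fold change was 0.10 (95% confidence interval -0.54 to 0.75, limma adjusted p = 0.964), with the sign turned under 4 of 18 alternatives, among them upper-quartile scaling (-0.06) and the CD8 marker covariate (-0.05).

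Ahr encodes the aryl hydrocarbon receptor, a ligand-activated factor that sustains resident T cells in the skin and gut of mice (ENSMUSG00000019256, chromosome 12, 35547973 to 35585037, minus strand). Its normalized values were 1493, 2403, 1481 and 2487 in KO libraries 1 to 4, against 2797, 2620, 1876 and 2431 in WT libraries 1 to 4. The 2 lowest values were in KO libraries 1 and 3 and the 2 highest in WT, with overlap between. The log2 fold change of -0.33 (95% confidence interval -0.86 to 0.19, limma adjusted p = 0.791) kept its sign in all 18 alternatives, with a range of -0.50 to -0.10. Of the macrophage and monocyte markers 9 of 10 were also negative, with a median log2 fold change of -0.46. Every KO library lay below every WT library for Mrc1, as for 2.09% of all genes tested. Summed, these markers were at 238306, 145180, 104849 and 198853 in KO libraries 1 to 4, against 276793, 229924, 228150 and 175227 in WT libraries 1 to 4. KO library 1, among the 2 lowest in Ahr, had the highest marker sum of the KO libraries. None of these markers was at 0 in any library, and their part in the Ahr values was not tested.

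Zfp683 encodes Hobit, a repressor that marks resident memory CD8 T cells in mice (ENSMUSG00000049410, chromosome 4, 133781149 to 133786307, plus strand). It was listed at 105, 0, 48.1 and 7.10 in KO libraries 1 to 4 and at 0, 0, 6.38 and 0 in WT libraries 1 to 4. It was above 0 in 3 KO libraries and 1 WT library, at no more than about 1.34 fragments in any of them. The fitted log2 fold change of 3.12 (95% confidence interval -0.96 to 7.20, limma adjusted p = 0.770) was 1.53 with a pseudocount of 10, so no size can be read from it.

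Xcl1 encodes a chemokine by which activated CD8 T cells and NK cells attract XCR1-bearing dendritic cells (ENSMUSG00000026573, chromosome 1, 164759213 to 164763096, minus strand). It was listed at 136 in KO library 3, at 12.8 in WT library 3 and at 0 in the other 6 libraries. The highest value corresponds to about 3.31 fragments, and a difference between KO and WT hosts was not detectable at this depth (limma adjusted p = 0.951).

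P2rx7 encodes an ion channel opened by extracellular ATP, which in mice lets damaged tissue kill or shape T cells that carry it (ENSMUSG00000029468, chromosome 5, 122781974 to 122829495, plus strand). Its normalized values were 1822, 1789, 588 and 1311 in KO libraries 1 to 4, against 1891, 1641, 1325 and 1237 in WT libraries 1 to 4. Only KO library 3 lay apart, below all the others. That library had the lowest macrophage and monocyte marker sum, 104849, and the highest CD8 T cell marker sum, 42686. KO library 2 had the next lowest macrophage and monocyte marker sum, 145180, with P2rx7 at 1789. The part of macrophages in the P2rx7 values was not tested. For P2rx7 the log2 fold change was -0.25 (95% confidence interval -0.94 to 0.43, limma adjusted p = 0.876), or 0.11 without KO library 3.

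**Figure D3:**
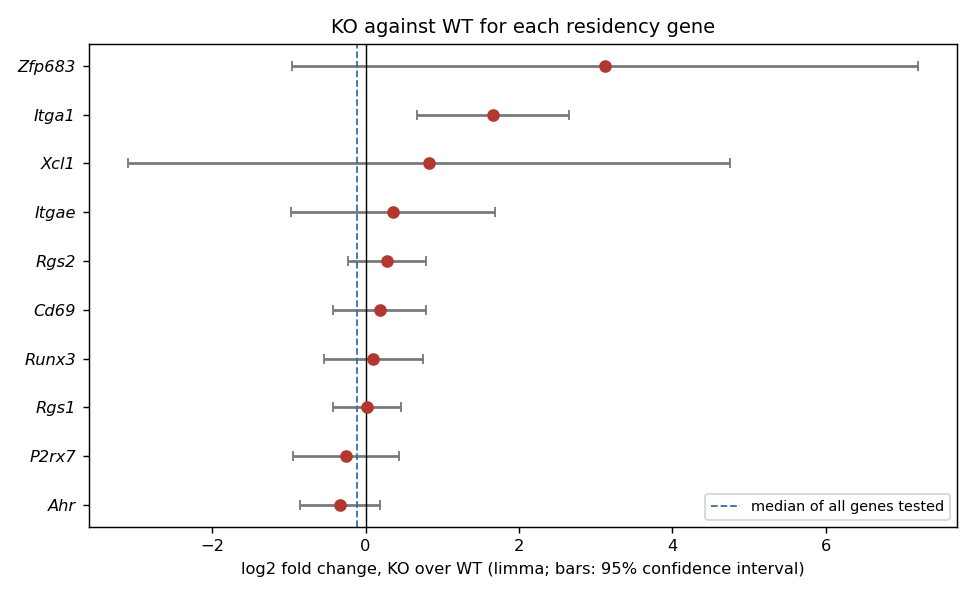
Log2 fold change of each residency gene, KO over WT, from limma on log2(value + 1), with its 95% confidence interval. The dashed line is the median of all genes tested, at -0.12. The interval of Itga1, 0.67 to 2.65, lies above 0 before adjustment for the number of genes tested, and the other 9 intervals include 0.

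Levels of the members were compared per kilobase of exon, with the exon lengths of GENCODE M21. Rgs1 was highest, at 1591 ± 306 per kb in KO and 1585 ± 385 per kb in WT (SD, n = 4 each), and Rgs2 followed, at 813 ± 147 per kb in KO and 685 ± 193 per kb in WT. Rgs1 lay above Rgs2, and Rgs2 above Ahr, without overlap over the 8 libraries. Ahr (357 per kb over all libraries), Cd69 (343), P2rx7 (243) and Runx3 (209) came next, and the ranges of neighbours in this order overlapped. Runx3 was above Itgae in 8 of 8 libraries, although their ranges over libraries overlapped. The integrin chains were lower, at 95.4 ± 57.7 per kb in KO and 85.5 ± 48.7 per kb in WT for Itgae, and at 69.5 ± 4.89 per kb in KO and 27.9 ± 17.8 per kb in WT for Itga1. Xcl1 and Zfp683, the pair with libraries at 0, stood last.

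**Figure D4:**
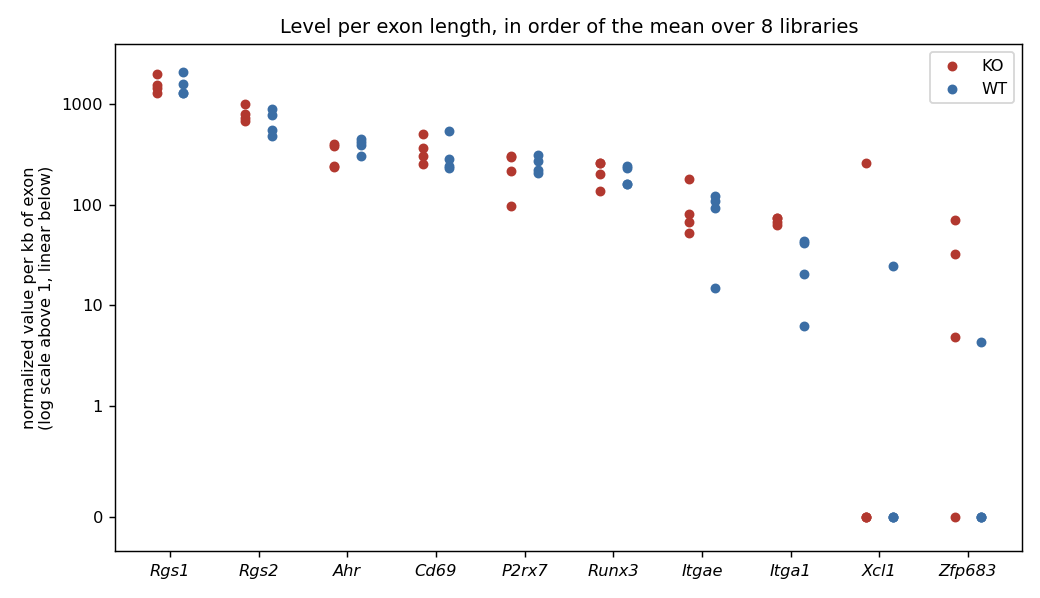
Normalized value per kilobase of exon for each residency gene in each library, ordered by the mean over the 8 libraries, on an axis that is logarithmic above 1 and linear below. Red points are KO and blue points WT libraries. The KO and WT points of Rgs1, with means of 1591 and 1585 per kb, overlap, and Xcl1 and Zfp683 have points at 0.

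Related genes were read from 9 lists, with 91 different genes, of which 84 were tested. None of the 84 passed limma's adjusted threshold, where 0.236% of all genes tested passed. An unadjusted limma p below 0.05 was found for 16 of the 84, against 6.7% of all genes tested. Every KO library lay above every WT library for 10 of the 84, against 2.02% of all genes tested. The lists were chosen with earlier results of these data known, so these counts are not independent of the values. None of the 84 had every KO library below every WT library, which 2.09% of all genes tested had. Relative to the mean log2 level of the CD8 T cell markers, KO and WT overlapped for Cxcr6, Skil, Ccr7, Samhd1, Rgs16, Tbx21, Nlrp3 and Nt5e. Cd101 and Rgs8, the others of the 10 genes with KO above WT, stayed apart on that scale, at few fragments.

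Among 11 other genes that are high in resident memory cells, 0 passed and 5 had an unadjusted limma p below 0.05, with a median log2 fold change of 0.33. Cxcr6, a chemokine receptor that keeps T cells near CXCL16-producing cells, had normalized values of 2964, 1785, 2918 and 3213 in KO libraries 1 to 4, against 1371, 1041, 1074 and 1697 in WT libraries 1 to 4. The groups did not overlap, with a log2 fold change of 1.06 (SE 0.26, adjusted p = 0.132 by limma). Bhlhe40, a transcription factor that supports the mitochondria of resident cells, had a log2 fold change of 1.02 (SE 0.24, adjusted p = 0.106 by limma), at 10383 to 22700 in KO libraries and 5882 to 10446 in WT libraries. Skil, a brake on SMAD signalling, had 0.51 (SE 0.19, adjusted p = 0.654 by limma) and did not overlap, nor did Cd101, named here after its values were seen, at 123 to 712 in KO libraries and 0 to 97.8 in WT libraries. The Cd101 values rest on few fragments, at most about 11.3 in any library.

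Among 11 tested genes of circulating cells and tissue exit, 0 passed and 2 had an unadjusted limma p below 0.05, with a median log2 fold change of 0.39. Ccr7, the receptor that leads T cells and dendritic cells to lymph nodes, was at 668 to 2244 in KO libraries and 261 to 615 in WT libraries, a log2 fold change of 1.28 (SE 0.42, adjusted p = 0.463 by limma). Samhd1, a nucleotide hydrolase, was at 1794 to 2266 in KO libraries and 832 to 1375 in WT libraries (log2 fold change 0.78, SE 0.26, adjusted p = 0.477 by limma). Medians of the residency and circulation lists were both above 0 in the fit without the CD8 marker covariate. With that covariate the residency median was -0.0010, and the circulation median was not computed.

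Of 13 other RGS genes tested, 0 passed, 2 had an unadjusted limma p below 0.05, and the median log2 fold change was 0.04. Rgs16, which like Rgs1 acts on chemokine receptor signals in activated T cells, had normalized values of 1092, 1103, 883 and 1042 in KO libraries 1 to 4, against 349, 664, 137 and 149 in WT libraries 1 to 4. Its log2 fold change was 1.96 (SE 0.47, adjusted p = 0.116 by limma). Rgs8 was listed at 94.0, 407, 119 and 189 in KO libraries 1 to 4 and at 0 in all 4 WT libraries (limma adjusted p = 0.166), a level of few fragments. Rgs10, the most abundant of the other RGS genes, had a log2 fold change of 0.04 (SE 0.27).

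Partners and ligands of the integrins did not pass either (0 of 10, 2 with an unadjusted limma p below 0.05, median log2 fold change -0.10). Itgb1, the partner chain of Itga1, was at 15309 to 29213 in KO libraries and 22130 to 39398 in WT libraries (log2 fold change -0.28, SE 0.24). Itga4 had a log2 fold change of 0.72 (SE 0.22, adjusted p = 0.367 by limma) and Itgal, the alpha chain of LFA-1, of 0.89 (SE 0.31, adjusted p = 0.574 by limma). Itgb7, the partner of Itgae, and Cdh1, its ligand E-cadherin, both named outside the rule for these roles, had log2 fold changes of 0.08 (SE 0.53) and 0.30 (SE 0.37).

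Of the TGF-beta pathway, which induces Itgae in T cells, 0 of 14 genes passed and 3 had an unadjusted limma p below 0.05, with a median log2 fold change of 0.02. Smad7, an inhibitor that TGF-beta itself induces, had 0.62 (SE 0.23, adjusted p = 0.639 by limma), and Itgav, which can activate latent TGF-beta, had 0.0023 (SE 0.22). Tgfb2, another of the 3 but named outside the rule, went the other way at -4.26 (SE 1.72, adjusted p = 0.6785 by limma). Its values, 0 to 103 in KO libraries and 59.2 to 554 in WT libraries, rest on at most about 8.57 fragments. Of the RUNX family and partners, 0 of 5 passed and 1 had an unadjusted limma p below 0.05 (median 0.13): Runx2, at a log2 fold change of 0.86 (SE 0.26, adjusted p = 0.367 by limma). Tbx21, the effector factor T-bet, was at 106 to 552 in KO libraries and 31.6 to 98.4 in WT libraries without overlap (log2 fold change 1.78, SE 0.93, limma adjusted p = 0.767), and Runx1 had -0.12 (SE 0.25). The Tbx21 values rest on few fragments, about 0.508 to 6.86 per library.

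Partners and targets of AHR had 0 of 6 tested genes past the threshold and 0 with an unadjusted limma p below 0.05 (median 0.14). Tiparp, an AHR target that feeds back on the receptor, stood at 0.25 on the log2 fold change scale (SE 0.23), while Hsp90ab1, a chaperone of the receptor, stood at -0.0079 (SE 0.20). Of genes of the XCL1 receptor and the dendritic cells that bear it, 0 of 6 passed and 0 had an unadjusted limma p below 0.05 (median 0.51), with Irf8 at 0.58 (SE 0.30), Flt3 at 2.30 (SE 2.23) and Cadm1 at 0.11 (SE 0.31). The Flt3 values rest on few fragments, at most about 4.98 in any library.

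Genes of extracellular ATP and adenosine, the setting in which P2rx7 acts, had 0 of 10 past the threshold and 2 with an unadjusted limma p below 0.05, with a median log2 fold change of 0.46. Nlrp3, the inflammasome sensor that P2RX7 can trigger in myeloid cells, had normalized values of 5256, 4568, 3843 and 4487 in KO libraries 1 to 4, against 1532, 1944, 1734 and 3290 in WT libraries 1 to 4. The groups did not overlap, and the log2 fold change was 1.15 (SE 0.24, adjusted p = 0.0533 by limma), the smallest adjusted p of the 9 lists. Nt5e, the ectoenzyme CD73 that makes adenosine, was at 3443 to 6936 in KO libraries and 1973 to 3380 in WT libraries (log2 fold change 0.88, SE 0.25, limma adjusted p = 0.286).

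**Figure D5:**
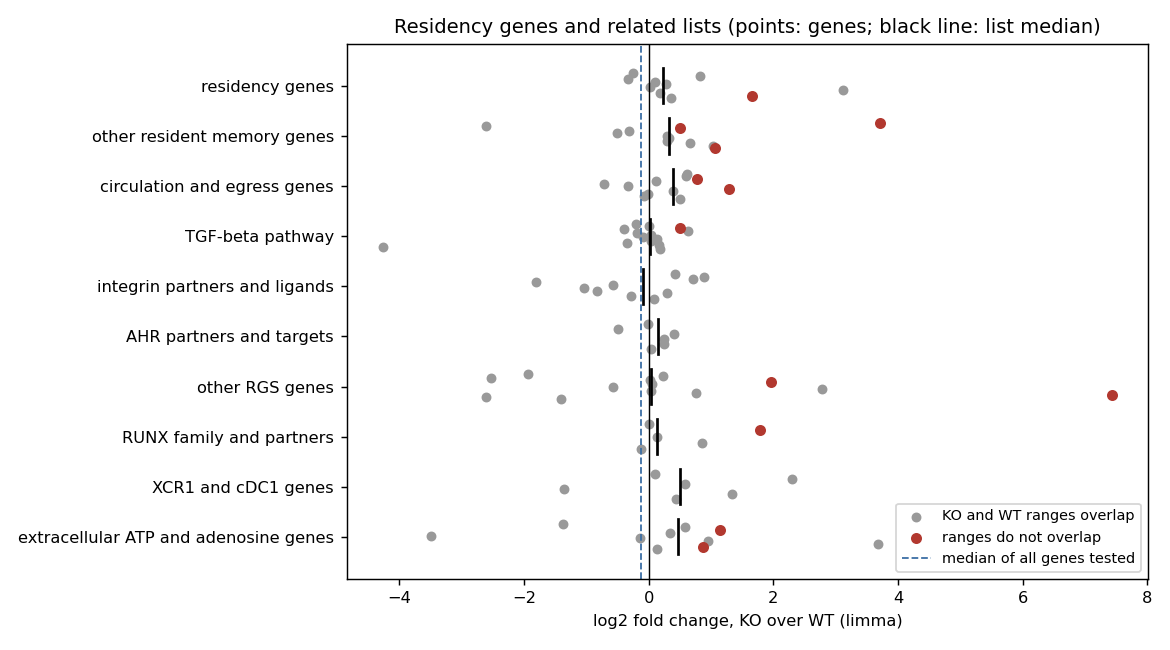
Log2 fold change, KO over WT, of each tested gene in the residency list and in 9 related lists. Points are genes, red where every KO library lay above every WT library, black lines are list medians, and the dashed line is the median of all genes tested at -0.12. The list medians lie between -0.10 and 0.51, and the red point farthest to the right is Rgs8, which was listed at 0 in all 4 WT libraries.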

How the data were processed

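RNA of sorted tumour CD8 T cells was measured in 8 libraries, 4 KO and 4 WT, grouped by the submitters' descriptions. Each gene has 1 deposited value per library, a signal that the authors made by dividing counts by DESeq2 size factors, per the table's name. Per the submitters' processing notes, STAR 2.7.8a, DESeq2, Partek and the build mm39 were used, with no roles given. Strand is not stated, so antisense overlap cannot be told apart. The lowest values gave the worth of 1 read in a library as 0.788 to 1.30. Divided by it, 81.7% to 88.1% of values not above 500 reads came out whole within 0.02 reads, too few for a count model. Small RNA genes held 28.5% to 36.3% of each library.

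Fragments were estimated from genes whose remaining libraries averaged 20 to 500, as the number at which a Poisson draw leaves out the share seen with under 3 reads (9.09% to 45.0%). Values were taken as log2(value + 1), those of genes averaging 10 or more were kept, and KO was set against WT with limma 3.58.1 in R 4.3.3 (eBayes with trend), two-sided, with Benjamini-Hochberg adjustment over 16120 genes and a threshold of 0.05. Single members were also tested by exact permutation of the 8 libraries. For KO against WT simulated on 14780 genes, 45% of 100 genes changed by 1 (log2) and 83% of 100 changed by 2 were recovered, with 5 false calls. The changed genes were drawn only from abundant genes, with means above those of Itgae, Itga1, Zfp683 and Xcl1. These shares therefore do not cover those members. Coordinates are the authors' on mm39, with 1 subtracted from each stop to give the end, because stop minus start equals the annotated gene length for 98.5% of 19544 matched genes.

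Members and lists were chosen with earlier results of these data known. Of related lists, the genes named were those past the threshold, the 2 lowest in p and the most abundant 1. Of these, 2 genes are not reported here. Alternatives were pseudocounts, minimum means, scalings, a replicate block, sample weights, robust hyperparameters, a CD8 marker covariate and leaving out each library.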

Additional observations from a re-analysis of the deposited data

Results flagged for a closer look

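In 80 groups of 4 libraries, from the 40 genes named by rule, 10 had a library whose gap to its nearest neighbour was too large a share of the group's range by Dixon's test at 95%. Chance flags about 1 in 20 groups if values are normally distributed. Among the members, Xcl1 stood out in KO library 3 (136) and in WT library 3 (12.8), and Zfp683 in WT library 3 (6.38), each against 0 in the other 3 libraries of the group. A group with a single value above 0 is always flagged, whatever that value is. These values correspond to about 3.31, 0.543 and 0.272 fragments. Cd8a was low in WT library 2 (1565), where the remaining WT values ran from 5712 to 6545. Itga4 was high in KO library 2 (15347) and in WT library 4 (11946). Runx2 was high in WT library 4 (3985) and Skil low in WT library 3 (9340). Flt3 was high in KO library 1 (390) and in WT library 3 (51.0).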

How the results depend on the processing

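The count of residency genes past the threshold was 0 under all 18 alternatives. Their median log2 fold change, reported as 0.23, ranged from -0.0010 with the CD8 marker covariate to 0.34 without WT library 4. It was 0.03 without WT library 2, so its sign and size depend on these choices. The count of all genes past the threshold, 38 as reported (34 higher and 4 lower), was 63 with a pseudocount of 10, 15 at a minimum mean of 50 (15 higher and 0 lower), 15 with upper-quartile scaling (11 higher and 4 lower), 112 with sample weights, and 7 (without KO library 4) to 70 (without WT library 4) when each library was left out. With the replicate number as a block it was 0, with 1101 genes at an unadjusted limma p below 0.05. The numbers gave no clear pairing: the 4 same-numbered pairs had correlations of 0.0162 to 0.0757, and 1 of 8 libraries correlated best with its own number. Pairs with unlike numbers ran from -0.093 to 0.0968. Correlations this near to 0 cannot exclude that libraries of the same number share a batch. Upper-quartile scaling moved the median of all genes by -0.157. Of 230 alternative values, 203 were counted as keeping their direction and their side of the threshold. Among them is the median with the CD8 marker covariate, at -0.0010, just below 0. Of the rest, 12 counts moved and 15 log2 fold changes turned sign. Under quantile scaling Rgs1 became -0.041. Under upper-quartile scaling Rgs1 became -0.149 and Runx3 -0.0626. With the CD8 marker covariate Rgs1 became -0.0294, Runx3 -0.0506 and Itgae -0.216. With sample weights Itgae became -0.0632 and Xcl1 -0.269. When each library was left out, Rgs1 ranged from -0.104 (KO library 4 out) to 0.166 and was also below 0 with WT library 2 (-0.0715) or 3 (-0.0636) out. Runx3 ranged from -0.0053 (KO library 3 out) to 0.305, at -0.0034 with KO library 4 out, Itgae from -0.35 (WT library 2 out) to 0.663, and P2rx7 from -0.431 to 0.112 (KO library 3 out). The cause was not tested. Itga1 ranged from 1.05 to 1.99, with limma adjusted p from 0.0647 (sample weights) to 0.738 (without WT library 1). Zfp683 and Xcl1 were not tested at a minimum mean of 50, nor Zfp683 without KO library 1 or Xcl1 without KO library 3, since they fell below the filter. Few fragments limit Zfp683 and Xcl1, Itga1 in WT library 1, and Itgae in WT library 2 and KO libraries 1 and 2. They also limit what the small spread of Itga1 among KO libraries can show.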
